A study of Rattus norvegicus with 4 samples.

Results

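The TRIM ubiquitin ligase family was taken as every gene of the array whose symbol is Trim followed by a number and at most 1 letter, which gave 43 of the 14497 genes measured. Each of the 43 had 1 probe set, so no choice between probe sets entered, and all 43 were found by gene identifier in RefSeq (rat assembly GRCr8), with 0 symbols changed. RefSeq lists 59 symbols of this form in GRCr8, and the other genes are not analysed here. The samples were 4 primary cultures of rat embryonic hippocampal neurons, 2 given an shRNA against Gld2 and 2 given a scrambled shRNA as control, with poly(A) RNA measured on 1 array each. All 4 cultures thus carried an shRNA, no untreated culture is part of the comparison, and the labels do not name the vector, the promoter of the shRNA or the days in culture. The RNA came off poly(U) Sepharose by heat, so a change in the amount of a transcript and a change in how well its tail binds the column cannot be told apart here.

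TRIM proteins share an N-terminal tripartite motif, usually a RING finger that recruits a ubiquitin-loaded E2 enzyme, followed by B-box zinc fingers and a coiled coil. The C-terminal part differs between members, picks the substrate and divides the family into classes. Members with a B30.2 (PRY-SPRY) domain include many restriction factors and regulators of innate immune signalling that interferon induces, while members with NHL repeats or with a COS box and fibronectin domain act in axons, synapses and on microtubules. Gld2 (gene symbol Tent2) is a cytoplasmic poly(A) polymerase.

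The promoters of 3 members are shown because they belong to the list of interferon-inducible TRIM genes and have the 3 highest log2 differences of it, and because they differ in whether they hold the core of the interferon-stimulated response element, GAAA, any 2 bases, and GAAA again. The sequences are from RefSeq, build GRCr8, and run 5′ to 3′ from 250 bases before to 50 bases after the start site that its table uses. Capitals mark each match to this motif or its reverse complement.
Trim25 promoter, chr10:74309774-74310073, plus strand: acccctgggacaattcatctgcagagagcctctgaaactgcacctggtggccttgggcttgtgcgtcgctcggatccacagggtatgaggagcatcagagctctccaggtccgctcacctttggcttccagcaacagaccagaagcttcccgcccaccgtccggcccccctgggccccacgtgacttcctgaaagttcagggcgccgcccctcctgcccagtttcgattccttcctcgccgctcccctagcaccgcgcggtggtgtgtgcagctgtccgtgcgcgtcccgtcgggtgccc
Trim21 promoter, chr1:166399322-166399621, minus strand: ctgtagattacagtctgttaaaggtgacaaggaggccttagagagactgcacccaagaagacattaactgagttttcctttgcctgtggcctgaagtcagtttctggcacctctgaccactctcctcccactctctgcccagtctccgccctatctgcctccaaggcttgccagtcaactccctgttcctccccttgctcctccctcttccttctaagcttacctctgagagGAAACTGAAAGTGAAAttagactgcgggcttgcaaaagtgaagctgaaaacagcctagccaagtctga
Trim26 promoter, chr20:1736262-1736561, minus strand: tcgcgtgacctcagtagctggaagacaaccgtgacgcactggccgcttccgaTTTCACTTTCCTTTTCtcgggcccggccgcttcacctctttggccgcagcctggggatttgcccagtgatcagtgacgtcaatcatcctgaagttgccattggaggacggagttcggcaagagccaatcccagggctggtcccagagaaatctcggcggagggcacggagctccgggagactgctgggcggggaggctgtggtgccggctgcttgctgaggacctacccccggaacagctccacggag

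In the Trim21 promoter 2 overlapping matches began 18 and 12 bases before the start and formed the 16-base run GAAACTGAAAGTGAAA. The Trim26 promoter held 2 overlapping matches of the opposite orientation, 198 and 192 bases before the start, in the run TTTCACTTTCCTTTTC. These letters were not in the Trim25 window. A promoter was found for 34 of the 43 members, and of these 3 (8.82%) held the motif on either strand, Trim21, Trim26 and Trim40, the last with a single match, TTTCTCTTTC, 201 bases before its start. Among the promoters of all genes measured here the share was 3.41% (407 of 11946), and among all RefSeq promoters of the same length it was 3.77%. A match is a stretch of letters, and no binding was measured here.

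The knocked-down transcript was lower in both treated cultures. Tent2 had log2 RMA values of 9.50 and 9.35 after Gld2 shRNA against 10.73 and 10.67 after scrambled shRNA, and stood at 41.1% of the control level (log2 difference -1.28, standard error 0.0751, limma, adjusted p = 7.54e-04 with Benjamini-Hochberg correction across all 14497 genes). RMA brings the arrays to 1 scale, and their medians lay between 8.41 and 8.48. The 7 neuron markers checked (among them Tubb3, Map2 and Snap25) had probe sets in the upper part of the signal range, from percentile 83.9 to 99.6, with mean log2 values of 12.51 and 12.52 after Gld2 shRNA and 12.60 and 12.57 in the controls. The 9 microglia markers lay between percentiles 10.5 and 42.9, and 0 of them passed the threshold. Their mean log2 values were 7.60 and 7.69 after Gld2 shRNA and 7.51 and 7.54 in the controls. Their median log2 difference was 0.12, with 8 of 9 above 0. In 6 both treated cultures lay above both controls, as in 24.0% of all genes. Genes below the median signal, as all 9 are, had a median of 0.04, with 59.9% above 0. In deciles 2, 3, 4 and 5 of the signal, which hold these markers, the medians over all genes were 0.08, 0.10, 0.05 and -0.06. The markers thus lay in the same direction as such dim genes and as the interferon-inducible TRIM genes described next. The part of these markers in the TRIM differences was not tested. The labels name no dissection or animal for a culture, so p-values rest on the spread over the cultures at hand, part of which may be technical.

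Within the family, 3 members rose, 2 fell and 38 did not pass the threshold of an adjusted p under 0.05 (limma, Benjamini-Hochberg). Trim25 rose 3.23-fold and Trim21 2.43-fold, both B30.2 ligases on the list of interferon-inducible TRIM genes, and the other 3 changes were small, with Trim47 1.27-fold higher, Trim2 1.34-fold lower and Trim59 1.31-fold lower. The 5 called members are 11.6% of the family, against 4.10% of all genes, with 6.98% against 1.69% for higher and 4.65% against 2.41% for lower. These shares rest on few members and were not tested against each other. With each array centred on the median of the tested genes the family had 3 higher and 0 lower members, and all genes 218 higher and 94 lower in place of 245 and 349. Centred on the median of all probe sets, a setting added after the data were seen, the family had 4 higher and 4 lower members, with Trim63, Trim36 and Trim41 added, and all genes had 558 higher and 1367 lower.

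The family did not move one way as a whole. The median log2 difference of the 43 members was 0.02 against -0.02 over all genes, with 23 members above 0 and 20 below. Without the 6 measured members of the interferon-inducible list the median was -0.04, and the values ran from -0.43 to 0.34. In 14 members both Gld2 shRNA cultures lay above both controls (24.0% of all genes did so) and in 16 both lay below (34.5% of all genes). Together these are 69.8% of the family, while 58.5% of all genes had groups that did not overlap. At an unadjusted p under 0.05 (limma) 12 members, or 27.9%, were counted, against 25.4% of all genes, with 7 higher (9.24% of all genes) and 5 lower (16.2% of all genes). For the 38 members that did not pass, the 95% confidence intervals lay between -0.52 (Trim36) and 0.59 (Trim63) on the log2 scale, so none of these intervals reached a 2-fold change.

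**Figure D1:**
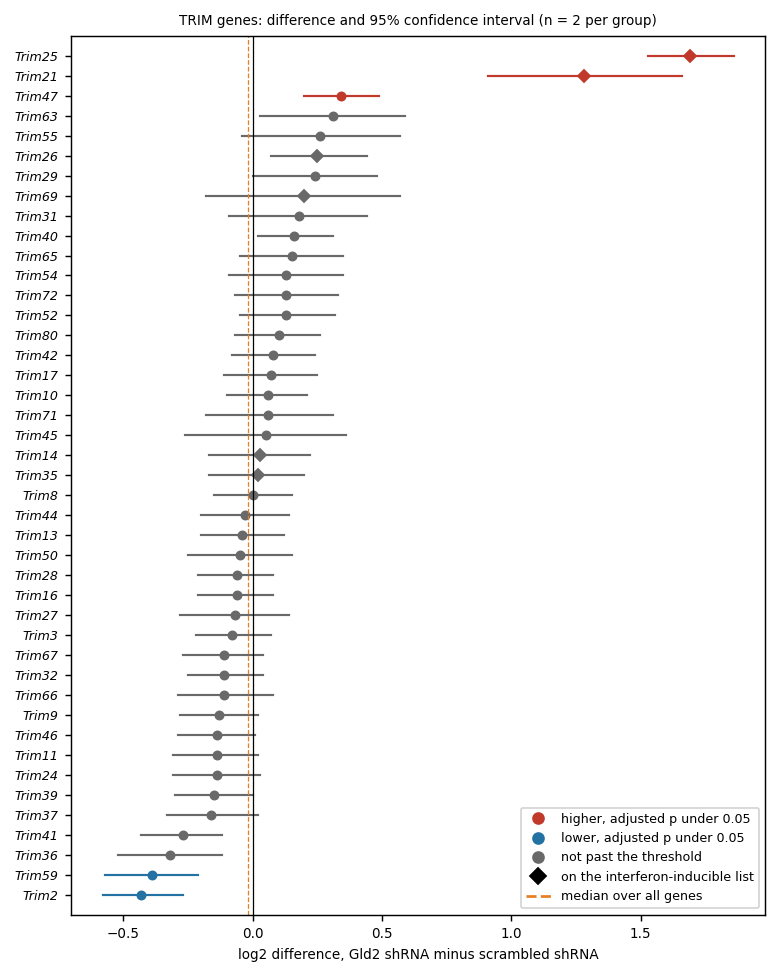
The log2 difference of each of the 43 TRIM genes (Gld2 shRNA minus scrambled shRNA, horizontal axis) with its 95% confidence interval from limma (n = 2 per group), sorted by size. Trim25 (1.69) and Trim21 (1.28) stand well to the right of all other members, whose points lie between -0.43 and 0.34.

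Trim25, a RING ligase that attaches ubiquitin chains to the RNA sensor RIG-I and also serves as a ligase for ISG15, had the largest difference of the family. Its log2 RMA values (probe set 10737411) were 11.22 and 11.11 in Gld2 shRNA replicates 1 and 2, and 9.50 and 9.45 in scrambled shRNA replicates 1 and 2. Both treated cultures lay far above both controls, and the cultures within a group differed little. Group means were 11.16 ± 0.0722 (SD, n = 2) for the knockdown and 9.47 ± 0.0363 (SD, n = 2), which gave a difference of 1.69 on the log2 scale (SE 0.0674, 95% confidence interval 1.53 to 1.86, limma, adjusted p = 1.59e-04). By p it ranked 26 of the 14497 genes. The call held without each of the 4 cultures in turn, with log2 differences from 1.64 to 1.74.

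Trim21, a cytosolic receptor for antibody-coated particles and a RING ligase, was the other strong rise. It had values of 9.57 and 9.20 after Gld2 shRNA against 7.95 and 8.26 in the controls (probe set 10724219). The groups were again clearly apart, but replicates of both groups differed more than for Trim25, with SDs of 0.264 and 0.224. The log2 difference was 1.28 (SE 0.153, 95% confidence interval 0.91 to 1.66, limma, adjusted p = 0.0137). Gld2 shRNA replicate 1 was 1.47 above the control mean and replicate 2 was 1.10 above it. Leaving out a control ended the call, at 1.12 without scrambled shRNA replicate 1 and at 1.44 without replicate 2. Fewer genes over the whole array passed in either setting than in the main fit.

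Of 19 names on the interferon-inducible list, 6 had a probe set with 1 symbol here, and beside Trim25 and Trim21 the other 4 did not pass. Trim26, a RING ligase reported to act on IRF3 in interferon-β induction, had values of 9.77 and 9.62 against 9.41 and 9.48 in the controls. Both treated cultures lay above both controls, by a small margin. The log2 difference was 0.25 (95% confidence interval 0.07 to 0.44, limma, adjusted p = 0.121). It passed when the variance prior followed the level (adjusted p = 0.0379), when genes under the median signal were left out (0.0310) and with cyclic loess (log2 difference 0.35, adjusted p = 0.0352), all in limma, of a range of adjusted p over the alternatives from 0.0310 to 0.498. The settings in which Trim26 passed called, in that order, 2232 of 14497, 1596 of 7249 and 748 of 14497 genes. The main fit called 594 of 14497. Trim14, a RING-less adaptor of antiviral signalling at mitochondria, had values of 7.61 and 7.79 against 7.65 and 7.69. Trim35, a RING ligase reported to act on IRF7, stood at 11.70 and 11.58 against 11.57 and 11.68. In both genes the groups overlapped. Their confidence intervals ended at 0.22 for Trim14 and 0.20 for Trim35, below the lower bounds of Trim25 and Trim21. Trim69, a member associated with microtubules, had a dim probe set (percentile 12.7 of the signal) and values of 6.98 and 6.78 against 6.47 and 6.91, again with overlap and a log2 difference of 0.20 (limma, adjusted p = 0.451). All 6 measured members of the list had differences above 0, with a median of 0.22, while 6699 of all 14497 genes lay above 0. Of the 6, 2 were called higher, against 1.69% of all genes. The direction held in 12 of 14 alternatives for Trim14, 12 of 15 for Trim35 and 12 of 13 for Trim69. The list was drawn up with earlier results of these data known.

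**Figure D2:**
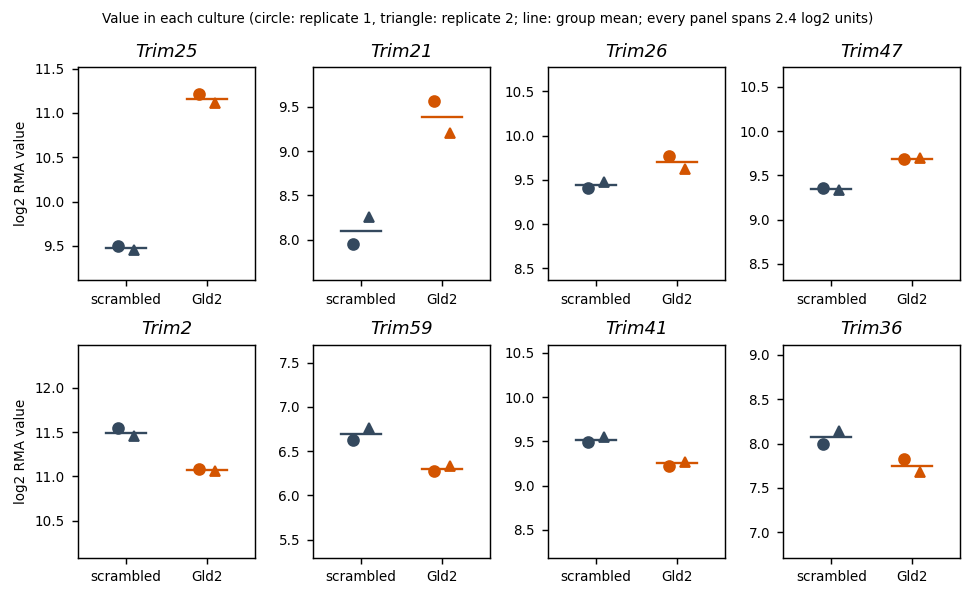
Log2 RMA value (vertical axis) of 8 TRIM genes in each scrambled shRNA and Gld2 shRNA culture, with circles for replicate 1, triangles for replicate 2 and lines for group means. Trim25 and Trim21 show wide gaps between groups, while Trim26, Trim47, Trim2, Trim59, Trim41 and Trim36 have separate groups that differ by 0.25 to 0.43 in size.

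Among the further B30.2 members, Trim47 rose and Trim41 was the nearest to a call in the other direction. Trim47 stood at 9.68 and 9.70 after Gld2 shRNA and at 9.36 and 9.33 in the controls (probe set 10749117). The difference was small but the replicates lay very close together. Group means were 9.69 ± 0.00762 (SD, n = 2) for the knockdown and 9.35 ± 0.0232 (SD, n = 2), which gave a difference of 0.34 on the log2 scale (95% confidence interval 0.20 to 0.49, limma, adjusted p = 0.0402). Its direction held in all 15 alternatives, but it passed in 8 of them. It missed the threshold without Gld2 shRNA replicate 2 (log2 difference 0.34), without scrambled shRNA replicate 1 (0.36) and without the other control (0.33). Fewer genes over the whole array passed in each of these settings than in the main fit. Trim41, a RING ligase that binds protein kinase C, had values of 9.22 and 9.27 against 9.49 and 9.55, a log2 difference of -0.27 (limma, adjusted p = 0.0756). It passed with the variance prior following the level (adjusted p = 0.0246), and with dim genes left out at the median (0.0116) or the 25th percentile (0.0343), all in limma. These settings called 2232 of 14497, 1596 of 7249 and 1297 of 10873 genes, against 594 of 14497 in the main fit. Trim11 (8.70 and 8.77 against 8.83 and 8.93) and Trim39 (8.88 and 8.84 against a control mean of 9.01 ± 0.00826, SD, n = 2) also had both treated cultures under both controls, at log2 differences of -0.14 and -0.15. Over the 15 measured B30.2 members with a RING finger, 3 rose, 0 fell and 12 did not pass, with a median log2 difference of 0.07. Of all genes 1.69% rose and 2.41% fell.

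Several members lie beside each other in the genome, and their differences are given here by neighbourhood. In the GRCr8 gene order Trim47 is next to Trim65, a ligase of the RNA sensor MDA5, which had a log2 difference of 0.15 (limma, adjusted p = 0.288) against 0.34 for Trim47. Trim17 and Trim11 are adjacent and had log2 differences of 0.07 and -0.14. On chromosome 20, Trim31, Trim40 and Trim10 follow each other, with Trim26 after 1 and Trim39 after 5 further protein-coding genes. Their log2 differences were 0.18, 0.16, 0.06, 0.25 and -0.15 in that order, and 0 of the 5 passed. Trim40, whose promoter holds the single match described above, had nearly equal replicates, with 8.08 and 8.09 after Gld2 shRNA against 7.92 and 7.92 in the controls (limma, adjusted p = 0.165). Trim31, a ligase reported to act on the antiviral adaptor MAVS, had values of 8.36 and 8.65 against 8.40 and 8.26, which overlapped.

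Of the NHL repeat members, which include ligases of axons and synapses, Trim2 fell. Trim2, a neuronal ligase that binds neurofilament light chain, had values of 11.08 and 11.06 after Gld2 shRNA and 11.54 and 11.45 in the controls (probe set 10824017). Both treated cultures lay below both controls and nearly coincided. The log2 difference was -0.43 (SE 0.0645, 95% confidence interval -0.58 to -0.27), so Trim2 stood at 74.4% of the control level (limma, adjusted p = 0.0308). Its paralog Trim3, a ligase of postsynaptic proteins, and Trim32, a ligase of neural progenitors and muscle, had log2 differences of -0.08 and -0.11 and did not pass. The RNA-binding developmental regulator Trim71 had values of 8.11 and 8.38 against 8.16 and 8.21, which overlapped. The gene of Trim2 is long, 151540 bp in GRCr8 at percentile 93.5 of the measured genes, and the 10% of measured genes with the longest spans had a median log2 difference of -0.12. With a trend over gene length removed from each array the Trim2 difference was -0.31 and no longer passed (limma, adjusted p = 0.0536). The call was also lost without Gld2 shRNA replicate 2 (-0.42), scrambled shRNA replicate 1 (-0.38) or replicate 2 of the scrambled shRNA (-0.47). With any of these cultures left out, fewer genes passed over the whole array than in the main fit.

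The 4 members that combine a COS box, which guides them to microtubules, with fibronectin and SPRY domains all had values below 0, and 0 of 4 passed. A COS box is also known in Trim42, which lacks the SPRY domain, and in the muscle RING finger proteins. These genes had values above 0 (0.08 for Trim42), so the direction does not extend to every member with a COS box. They all had signals below the array median, where 59.9% of all genes lay above 0. Mid1, a COS box gene under another symbol, lay below 0 (-0.35). Trim36, a microtubule-associated ligase, had values of 7.83 and 7.68 against 8.00 and 8.14, a log2 difference of -0.32 (limma, adjusted p = 0.0922). Trim9, a brain ligase that binds the netrin receptor DCC, stood at 11.75 and 11.73 against 11.84 and 11.90. Trim46, which bundles microtubules at the start of the axon, stood at 10.54 and 10.50 against 10.65 and 10.68. In all 3 the treated cultures lay under both controls, as they did for Trim67, the paralog of Trim9, at 10.13 and 10.16 against 10.29 and 10.22. The median of the class was -0.14. Of all genes, 53.8% had differences below 0, and 34.5% had both treated cultures under both controls. Genes at or above the median signal, as Trim9, Trim46 and Trim67 are, had a median of -0.06. With cyclic loess the log2 differences were -0.11 for Trim9, -0.38 for Trim36, -0.05 for Trim46 and -0.01 for Trim67. Trim36 had -0.39 without Gld2 shRNA replicate 1 and -0.25 without Gld2 shRNA replicate 2. It passed with genes under the 25th percentile of signal omitted (adjusted p = 0.0477, limma). That setting called 1297 of 10873 genes, against 594 of 14497 in the main fit.

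Chromatin members and those at membranes also all had log2 differences below 0, as did 53.8% of all genes. Trim28, the corepressor of KRAB zinc finger proteins, had values of 11.58 and 11.62 against 11.66 and 11.67, and Trim24, a cofactor of nuclear receptors, 9.63 and 9.51 against 9.71 and 9.72. These PHD finger and bromodomain genes, with Trim66, had log2 differences from -0.14 to -0.06, and 0 of 3 passed. Trim59, a ligase anchored in the endoplasmic reticulum membrane, fell. Its values were 6.27 and 6.33 against 6.62 and 6.76 (probe set 10823591), with a log2 difference of -0.39 (95% confidence interval -0.57 to -0.21, limma, adjusted p = 0.0496). The call lay at the threshold, and the probe set was among the dimmest of the family, at percentile 9.78 of the signal. The call was lost without Gld2 shRNA replicate 2 (log2 difference -0.42), without the first control culture (-0.46) and without the other (-0.32). In each of these settings fewer genes passed over the whole array than in the main fit. The other transmembrane member, Trim13, a ligase of endoplasmic reticulum protein degradation, had 8.58 and 8.47 against 8.58 and 8.55, with a log2 difference of -0.04. Trim37, the MATH domain ligase of centrioles and peroxisomes, had 10.62 and 10.50 against 10.76 and 10.67, a log2 difference of -0.16 that did not pass.

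**Figure D3:**
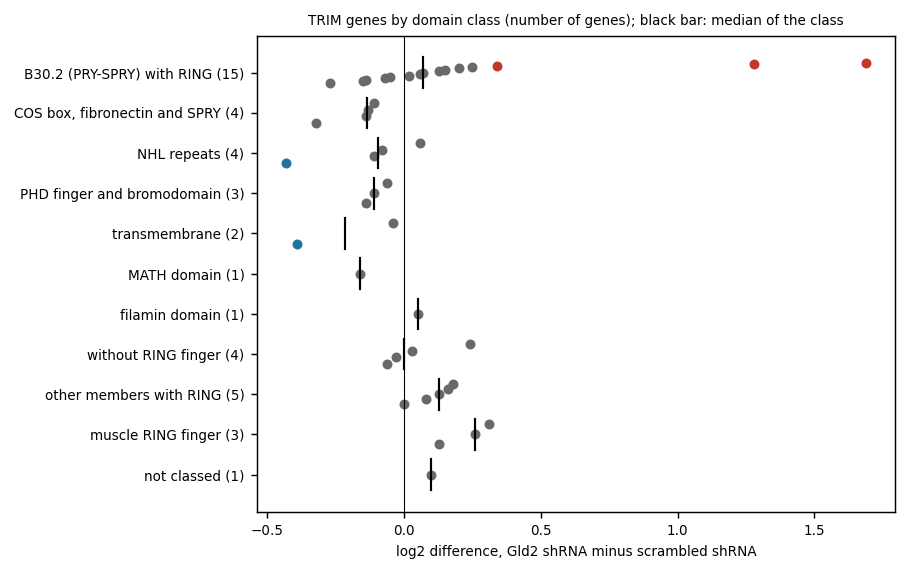
Log2 difference (Gld2 shRNA minus scrambled shRNA) of each TRIM gene by domain class, 1 point per gene, red for higher and blue for lower past the threshold, with a black bar at the class median. The 3 rises all lie in the B30.2 class of 15 genes, while the 4 genes with COS box, fibronectin and SPRY domains lie between -0.32 and -0.11 and the 3 muscle RING finger genes between 0.13 and 0.31.

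The muscle RING finger genes, whose proteins are known from the sarcomere, had values above 0 and dim or moderate probe sets. Trim63 (MuRF1) had 7.56 and 7.85 against 7.30 and 7.49, and Trim54 (MuRF3) had 8.50 and 8.73 against 8.46 and 8.52. In all 3 genes Gld2 shRNA replicate 2 was the highest culture. Over all genes of signal deciles 2 and 3, which hold Trim55 and Trim63, that culture had medians of 0.15 and 0.17 against the control mean. In decile 5, which holds Trim54, its median was -0.06. The log2 differences were 0.31 for Trim63, 0.26 for Trim55 and 0.13 for Trim54, and 0 of 3 passed. The 7 markers of muscle itself had 0 calls and a median log2 difference of 0.11. Their mean log2 value was 7.93 and 8.07 in the treated cultures against 7.94 and 7.97. That mean was thus highest in the same culture, but Myh1, Myh2 and Actn2 were each highest in another. Actn2 had 9.63 and 9.51 after Gld2 shRNA against 9.79 and 9.79. A part of muscle cells in the result was not tested. Trim63 stood at 0.45 without Gld2 shRNA replicate 1 and at 0.17 without replicate 2.

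Small differences in the family varied with the signal level, as they did over the whole array. Of the 25 members with signals below the array median, 17 were above 0, with a median of 0.07, whereas of the 18 brighter members 12 were below 0, with a median of -0.07. All genes in the same ranges had medians of 0.04 and -0.06. The pattern was plainer in Gld2 shRNA replicate 2, in which the dimmer members had a median of 0.13 against the control mean (0.10 over all such genes), while in replicate 1 it was 0.02 (-0.01 over all such genes). Trim45, which carries a filamin domain, had 8.10 and 8.48 against 8.22 and 8.26, which overlapped, and a log2 difference of 0.05. Trim29, which lacks a RING finger, had 7.89 and 8.13 against 7.71 and 7.83, with both treated cultures above both controls. Its log2 difference was 0.24 (limma, adjusted p = 0.196), and all genes of signal decile 3, which holds it, had a median of 0.10. The difference was 0.36 without Gld2 shRNA replicate 1 and 0.12 without replicate 2. Among the 1449 genes with the lowest signal, which holds Trim59 (-0.39), the median was 0.01, with 7 genes higher and 10 lower past the threshold.

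**Figure D4:**
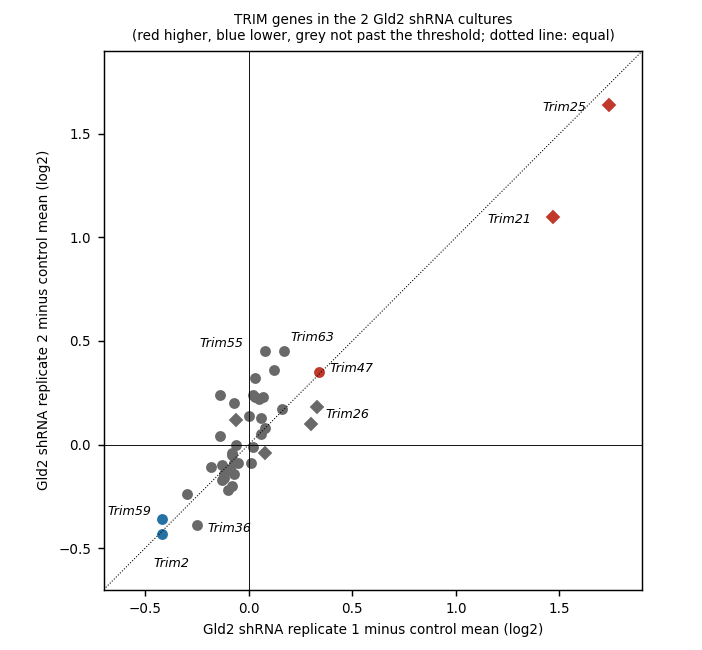
Difference of each TRIM gene from the control mean in Gld2 shRNA replicate 1 (horizontal axis) and replicate 2 (vertical axis), on the log2 scale, with diamonds for genes of the interferon-inducible list and a dotted line where both cultures are equal. Trim25 (1.74 and 1.64), Trim47 (0.34 and 0.35) and Trim2 (-0.42 and -0.43) lie near the line, Trim21 (1.47 and 1.10) lies below it, and Trim55 (0.08 and 0.45) and Trim63 (0.17 and 0.45) lie above it.

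The remaining members varied little. Trim8, a regulator of cytokine signalling, had 10.95 and 10.92 against 10.96 and 10.91, with a log2 difference of 0.00 and a 95% confidence interval from -0.15 to 0.15. Trim16, another member without a RING finger, had 8.43 and 8.47 against 8.50 and 8.53. Trim10, Trim17, Trim27, Trim42, Trim44, Trim50, Trim52, Trim72 and Trim80 had log2 differences between -0.07 and 0.13, and 0 of these 9 passed. The TRIM proteins that carry other names gave a like picture, with 0 of the 4 measured genes called. Mid1, the microtubule-bound ligase of the COS box class, had 10.19 and 9.99 against 10.41 and 10.47 (log2 difference -0.35, limma, adjusted p = 0.0768), and Fsd1 had 10.81 and 10.71 against a control mean of 10.92 ± 0.108 (SD, n = 2, log2 difference -0.16). Bspry stood at 9.56 and 9.52 against 9.65 and 9.63, and the pyrin gene Mefv at 7.55 and 7.81 against 7.62 and 7.59, at log2 differences of -0.10 and 0.08.

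Of the enzymes that feed RING ligases, those for ISG15 rose and those for ubiquitin did not pass. Of 17 measured E1 and E2 genes, 2 rose, 0 fell and 15 did not pass, while 1.69% of all genes rose and 2.41% fell. Uba7, the activating enzyme of ISG15, had 10.27 and 10.19 against 8.76 and 8.74, a log2 difference of 1.48. Ube2l6, the conjugating enzyme of ISG15, had 9.61 and 9.51 against 8.30 and 8.23, a log2 difference of 1.29 (limma, adjusted p = 1.80e-04 for Uba7 and 4.91e-04 for Ube2l6). Of the further genes of that pathway, the modifier Isg15 itself had 11.55 and 11.51 against 7.94 and 8.23, a log2 difference of 3.44 (limma, adjusted p = 4.60e-05). Usp18, the protease that removes ISG15, had 11.95 and 11.87 against 8.32 and 8.66, a log2 difference of 3.42 (limma, adjusted p = 7.73e-05). Both rose more than Uba7, Ube2l6 and Trim25, which can act as an ISG15 ligase. The E2 genes Ube2d1, Ube2d2, Ube2d3 and Ube2n, which serve many RING ligases, had log2 differences from 0.02 to 0.06. The whole list had a median of 0.03, and the ubiquitin activating enzymes Uba1 and Uba6 had log2 differences of -0.02 and -0.28.

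Innate signalling proteins that TRIM ligases modify or work with were divided. Of 16 measured genes, 4 rose, 0 fell and 12 did not pass, with a median log2 difference of -0.03. Over all genes 1.69% rose and 2.41% fell. Irf7, a transcription factor of the interferon response, had 11.57 and 11.41 against 8.70 and 8.68, a rise of 2.80 on the log2 scale. The RNA sensor gene Ifih1 (MDA5) had 10.43 and 10.30 against 8.34 and 8.24, a rise of 2.07. The RIG-I-like receptor gene Dhx58 had 10.09 and 9.97 against 7.82 and 8.01, a rise of 2.12. In these 3 genes the treated cultures lay far above the controls, and in Zc3hav1, the zinc finger antiviral protein gene, the replicates were further apart, at 10.19 and 9.82 against 8.67 and 8.38 (a rise of 1.48). Tlr3, the endosomal receptor for double-stranded RNA, had 8.14 and 7.89 against 7.60 and 7.35, with both treated cultures above both controls, and did not pass (log2 difference 0.54, limma, adjusted p = 0.0688). The ligase Traf6, a signalling partner of several TRIM proteins, had 8.95 and 8.95 against 9.25 and 9.25 and did not pass either (log2 difference -0.30, limma, adjusted p = 0.0524). The adaptor Mavs, the kinase Tbk1 and the transcription factor Irf3 had log2 differences of -0.01, -0.17 and -0.13. Of 17 measured core interferon response genes 17 rose, by 0.52 (Bst2) to 4.16 (Ifit3) on the log2 scale with a median of 3.42, so Trim25 and Trim21 lay below the middle of that list.

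Genes tied to the neuronal and chromatin members had mostly small differences, 10 of them below 0 and 6 above (53.8% of all genes lay below 0). Of 16 measured partners and targets, 0 rose, Xrcc4 fell and 15 did not pass, with a median log2 difference of -0.06. The shares over all genes were 1.69% higher and 2.41% lower. In 9 of the 16 both treated cultures lay below both controls (34.5% of all genes), and in 2 both lay above (24.0%). At an unadjusted p under 0.05 (limma) 5 were lower (16.2% of all genes) and 0 higher (9.24%). These shares were not tested against each other. Xrcc4, a DNA end-joining factor, had 8.68 and 8.46 against 9.12 and 9.01 (log2 difference -0.49, limma, adjusted p = 0.0473). For the partners of Trim2 and Trim9, Nefl, the neurofilament light chain gene, had a log2 difference of -0.03, and Dcc, the netrin receptor gene, of -0.19. The autophagy gene Becn1 had a log2 difference of -0.26 and the deubiquitinase gene Usp7 of -0.25, and neither passed. In bulk RNA of a culture, fewer cells of a type and less RNA per cell cannot be told apart, which holds for every difference above.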

How the data were processed

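The authors deposited 1 log2 RMA value per probe set and array for 28826 probe sets. The RMA and affy names come from the submitters' processing notes, with no settings or versions. Scan dates, detection calls and the build of the probe sets were not used here. The deposited values run from 3.23 to 14.26, from which the log2 scale was taken. Per the labels' protocols, RNA eluted from poly(U) Sepharose was labelled with whole-transcript kits.

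The platform annotation gave 1 symbol for 15209 probe sets, several for 306 and none for 13311. They stand for 14497 genes, of which 494 had several and were given by the brightest. Groups were compared with limma 3.58.1 in R 4.3.3 (lmFit, eBayes, two-sided, Benjamini-Hochberg, threshold 0.05), with 2 residual and 3.96 prior degrees of freedom. The fit was tested on simulated data with changes of known size. It called 6% of the 1.25-fold, 84% of the 1.5-fold and 100% of the 2-fold changes. A gene that did not pass may therefore still have changed by about 1.25-fold. With no counts or depths in array data, the number of arrays limits the precision.

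Members, lists and tests were chosen with earlier results of these data known. Given in full are members past the threshold, those on the interferon-inducible list, the 10 further members with the smallest p, and each domain class's extremes. Outside the family, values by culture are given for Tent2, the TRIM genes under other symbols and the called members of each list except the core interferon genes, of which those named are the extremes, 2 of the ISG15 pathway and 2 on another list. Further genes were named after their values were seen. Alternatives covered the prior, dim genes, normalization, probe sets, thresholds, gene length (GRCr8 span, missing for 31 genes, lowess span 0.3), a replicate block, moderation and each culture left out.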

Additional observations from a re-analysis of the deposited data

How the results depend on the processing

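No alternative turned the direction of a called member, and Trim25 passed in 14 of 15 alternatives, all but the linear model without moderation. The family's 3 higher and 2 lower members became 0 and 0 without moderation (Tent2 -1.28, adjusted p = 0.221 in limma, with 1 gene higher and 0 lower over all genes), 7 and 5 at an unadjusted p under 0.05 (all genes 1339 and 2348), and the lower members became 4 at an adjusted p under 0.1 (all genes 467 and 1017). The lower members numbered 0 with each array centred on the tested genes (all genes lower 94, family median 0.09), 0 with all probe sets tested (all genes 127 higher and 50 lower), 1 with the length trend removed and 4 with centring on all probe sets, added after the data were seen (all genes 558 and 1367). All genes gave 621 and 1611 with a prior that follows the level and 370 higher with cyclic loess. With genes under the median signal left out, 1287 genes were lower and the family median was -0.07, and with a minimum at the 25th percentile of signal these were 949 and -0.04. Without moderation the limited degrees of freedom are used alone; the cause of the other shifts was not tested.

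Leaving out 1 culture gave 1 to 6 higher and 0 to 3 lower members, 82 to 1283 higher and 3 to 1406 lower genes, and family medians from -0.05 to 0.04. The lowest counts of called genes came without a scrambled shRNA culture, where the lone control was assumed to vary like the Gld2 shRNA cultures. The final digit of the sample titles does not state a pairing. The deviations of the replicates numbered 1 correlated at 0.143 over genes, and a replicate block gave 2 higher and 2 lower members, with Trim47 lost (adjusted p = 0.0516 in limma), and 233 higher and 332 lower genes.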
